A study of Mus musculus with 6 samples.

Results

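Among 20380 array probe sets that name a single mouse gene, 97 probe sets of 72 genes (of 12393 genes in all) had higher signals in dendritic cells given the control adenovirus AdOVA than in cells without virus, and lower signals with the adenovirus AdIkBa-SR than with AdOVA. They were chosen by their measured values. A probe set was taken when its signal was at least 2-fold higher in AdOVA over untreated and in AdOVA+TNFa over TNFa, and at most 0.5 times as high in AdIkBa-SR over AdOVA and in AdIkBa-SR+TNFa over AdOVA+TNFa, with every signal under a floor (5.74 on the log2 scale) set to that floor. Genes of named interferon, chemokine, interleukin, STAT, TNF, NF-kB and heat-shock families were then left out by symbol. Without that last step 139 probe sets passed, and the 42 left out belong to 31 genes. The 4 ratios are therefore descriptions with no test, and the AdOVA arrays enter both the higher and the lower ratio, so these are not separate observations.

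NF-kB is a transcription factor that IkBa holds in the cytoplasm until a signal leads to the breakdown of IkBa. The super-repressor form of IkBa resists that breakdown and so keeps NF-kB out of the nucleus, while TNFa is a cytokine that normally sets NF-kB free. In dendritic cells, which present antigen to T cells, NF-kB and interferon signalling are both known to act when a virus is sensed.

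All cells were grown from bone marrow of a female CAR-transgenic mouse aged 13 weeks, so the controls carry the transgene as well, and the label gives no promoter for it. The bone marrow was expanded for 7 days and then kept for 7 days in 250 U/ml GM-CSF. Cells were left without virus or received AdOVA or AdIkBa-SR at 1500 particles per cell for 2 h, followed by 18 h of culture, and TNFa at 50 ng/ml for 4 h was added or not. Each of the 6 groups has 1 Affymetrix MOE430A array, so a difference between arrays cannot be set against a spread between replicates, and the labels do not tell whether the cultures were separate. Where a gene is given 6 signals, they stand in pairs, each first without and then with TNFa: cells without virus, then AdOVA, then AdIkBa-SR. No mock transduction is recorded, so virus and procedure cannot be told apart in a comparison with cells without virus. The arrays came from whole cultures, in which fewer cells of a type and less RNA per cell cannot be told apart.

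Median signals of the arrays ran from 74.4 to 88.5, and 57.9% to 63.4% of probe sets were above the floor. The untreated, TNFa and AdOVA arrays were hybridised in round 1 and the other 3 in round 2, and the AdIkBa-SR array was run with another wash and stain protocol (FlexGE-WS2, not EukGE-WS2). For it the header fields of the 2 washes hold 0 cycles and the first stain 420 s, against 10 cycles, 4 cycles and 600 s elsewhere. The 5' control probe set for 18S ribosomal RNA read 120 to 537 on 5 arrays and 2601 on the AdOVA+TNFa array. Of 12 dendritic cell markers, 10 to 12 were above the floor on each array (summed signal 9532 to 14224); Itgax, which encodes CD11c, stood at 247 and 329 on the AdOVA arrays against 664 to 847 elsewhere, while Ccr7 (402 and 516 against 101 to 200) and Zbtb46 (147 and 112 against 11.3 to 90.0) were higher there, and Flt3 was above the floor on the AdOVA array alone. Macrophage markers summed to 24499 to 30710 (5 to 6 of 7 above the floor) and granulocyte markers to 9529 to 24677 (5 to 7 of 7), the lowest on the AdOVA+TNFa array, while T cell markers had 0 to 1 of 4 above the floor. B cell, NK cell and erythroid markers summed to at most 344 on any array. The part of the round, the wash or other cells in the results that follow was not tested.

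On every array other than AdOVA and AdOVA+TNFa, the 97 member probe sets sat at similar levels: their median signal was 121 untreated, 162 for TNFa, 137 for AdIkBa-SR and 147 for AdIkBa-SR+TNFa, against 444 for AdOVA and 454 for AdOVA+TNFa. The median AdOVA ratio was 2.89-fold without TNFa (2.0 to 13.9) and 2.89-fold with TNFa (2.01 to 14.8). AdOVA stood above AdIkBa-SR by a median of 2.71-fold without TNFa (2.06 to 8.61) and 2.99-fold with TNFa (2.02 to 6.05). These ranges are what the rule asks for. Of all 14902 probe sets above the floor on at least 2 arrays, 1.91% were 2-fold higher with AdOVA in both pairs, 1.64% were 2-fold lower with AdIkBa-SR in both pairs and 1.06% met all 4 conditions. In the single pairs the shares were 4.42% (AdOVA over untreated), 6.25% (AdOVA+TNFa over TNFa), 4.39% (AdIkBa-SR below AdOVA) and 4.83% (AdIkBa-SR+TNFa below AdOVA+TNFa). The 97 members are 0.729% of the 13313 measured probe sets with 1 symbol outside the left-out families. With every array scaled to the same median 54 of the 97 met the rule. All members pass the filter on low signals because the rule places them above the floor with AdOVA. On all 6 arrays 66 were above the floor, and 11 were under it on all 4 arrays other than AdOVA and AdOVA+TNFa. The names of 17 member probe sets end in _x_at or _s_at, which marks probes that may read more than one transcript.

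**Figure D1:**
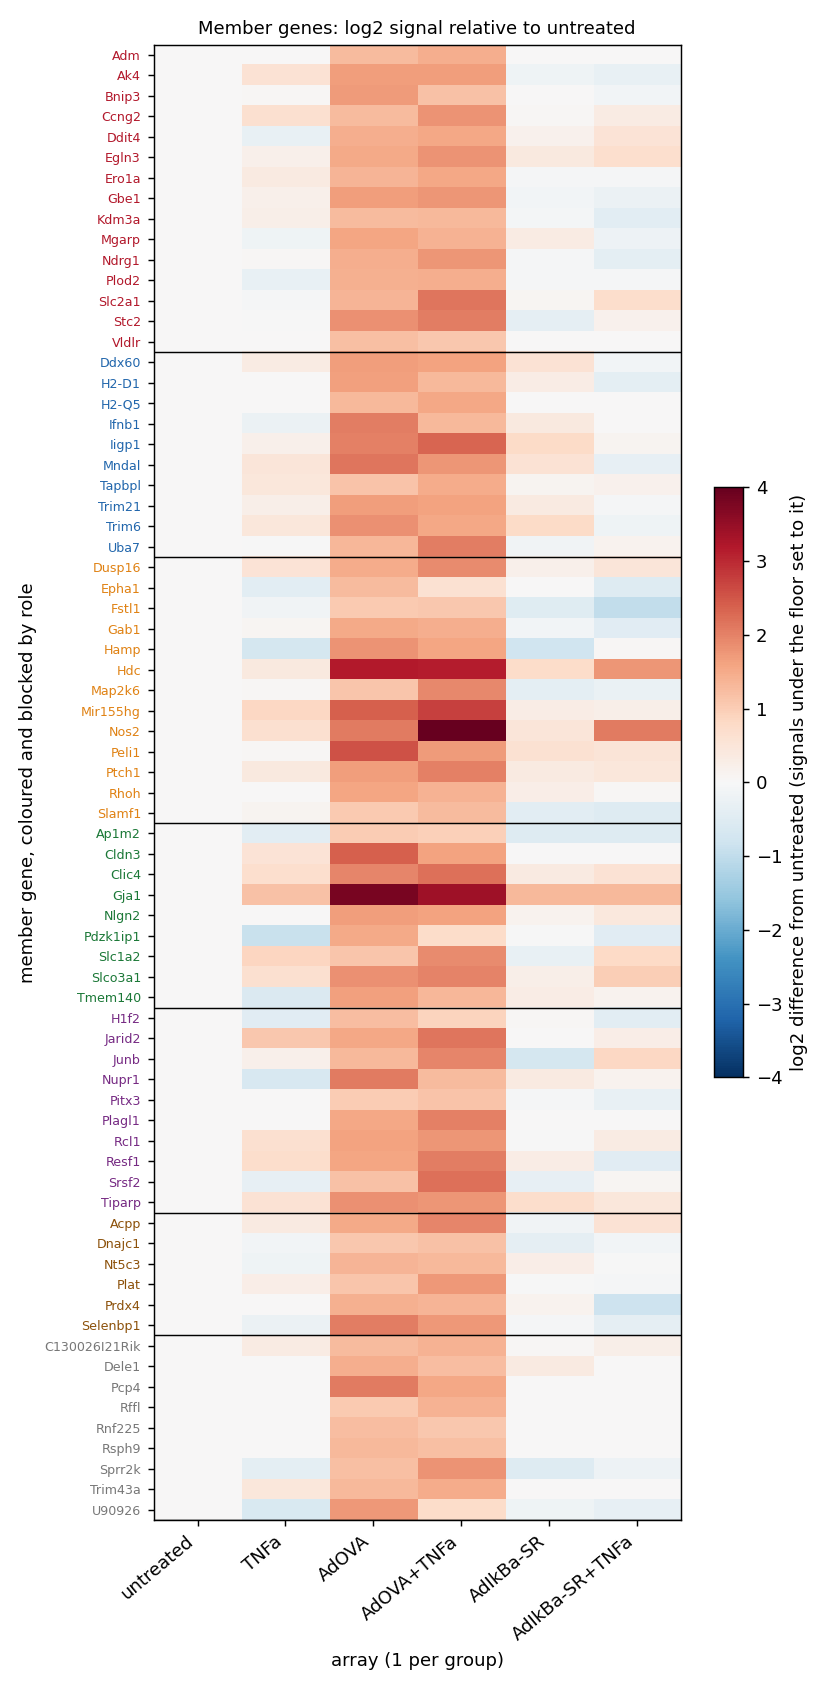
Each row is a member gene read from its brightest member probe set, each column 1 of the 6 arrays, and colour gives the log2 difference from the untreated array; names are coloured and rows blocked by the role of the gene, in the order in which the text takes them. The AdOVA and AdOVA+TNFa columns are red in all 72 rows. The rule requires this for AdOVA. For AdOVA+TNFa it follows from the 2-fold ratio over TNFa that the rule asks for, since TNFa over untreated was in no row below log2 -0.9. The columns without AdOVA stay near white in most rows, with Nos2 and Hdc among the exceptions in the AdIkBa-SR+TNFa column.

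The left-out symbol families did not remove all immune genes, so the members are not purely non-immune. A total of 10 genes with 14 probe sets act in the interferon response or in antigen presentation, among them the gene of interferon beta itself. Symbols beginning with Mx removed Mxi1 and Mxd1, which encode partners of the Max transcription factor and are no antiviral Mx genes. Mxi1 had signals of 587, 667, 1310, 1523, 554 and 632. The 7 groups of roles used below were drawn up after the values were seen, and their sizes are a description.

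The largest group of known function, 15 genes with 23 probe sets, consists of genes that textbooks list as induced in low oxygen, where the hypoxia-inducible factor HIF is the main activator. They cover glucose entry, glycogen, protein folding, mitochondria and growth control. Their median signal was 205, 220, 510, 649, 183 and 163.

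Ero1a, the oxidase that drives disulphide formation in the endoplasmic reticulum, was among the brightest members. On 1 of its 3 member probe sets it read 2093, 2302, 7163, 7058, 2320 and 2528. The arrays with AdOVA were thus 3.42-fold and 3.07-fold above those without virus, and the other arrays lay between 2093 and 2528. Its other member probe sets were highest with AdOVA+TNFa.

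Slc2a1, the glucose transporter GLUT1, had a higher level with AdOVA+TNFa than with AdOVA alone. Its signals on 1 of its 2 member probe sets were 943, 1164, 2939, 4686, 1056 and 1869. On both member probe sets the AdIkBa-SR+TNFa array stood above the other arrays without AdOVA. On the brightest Slc2a1 probe set, which is no member, that array was the lowest, with 2541, 2361, 4600, 6033, 2539 and 2147. Bnip3, a mitochondrial protein that promotes the removal of mitochondria, went the other way among the AdOVA arrays, with 1797, 1866, 5798, 4037, 1836 and 1651. The 4 arrays without AdOVA lay within 1651 to 1866 for Bnip3.

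Stc2, a secreted glycoprotein hormone, read 68.6, 68.2, 246, 281, 34.1 and 78.0. The stress-linked gene Ndrg1 read 145, 167, 491, 649, 95.6 and 158 on 1 probe set and 212, 220, 576, 727, 205 and 163 on another. Of its 4 member probe sets, all were highest with AdOVA+TNFa.

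Plod2, a lysyl hydroxylase of collagen, came from under the floor: 6.82, 31.2, 222, 169, 19.3 and 22.4 on 1 of its 2 member probe sets, with AdOVA ratios of at least 4.16-fold without TNFa and at least 3.16-fold with it. Its other member probe set read 65.2, 51.9, 174, 177, 62.7 and 62.5. Both probe sets of Plod2 are low without AdOVA and separate the AdOVA arrays from the others, as the rule asks among arrays of the same TNFa treatment. Gbe1, the glycogen branching enzyme, read 97.6, 112, 310, 331, 90.4 and 83.1.

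Egln3, a prolyl hydroxylase that marks HIF for breakdown, read 1191, 1373, 3434, 4124, 1567 and 1913, with both AdIkBa-SR arrays above both arrays without virus. Ddit4, an inhibitor of the growth kinase mTOR, read 453, 369, 1236, 1326, 505 and 658. Adm, the vasodilator peptide adrenomedullin, was at or below 3.93 on the 4 arrays without AdOVA and at 128 and 145 with it. The other genes of this group are the adenylate kinase Ak4, the cyclin Ccng2, the histone demethylase Kdm3a, the mitochondrial protein Mgarp and the lipoprotein receptor Vldlr. Their signals with AdOVA alone ran from 122 to 1034, with Vldlr the dimmest and Kdm3a the brightest.

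**Figure D2:**
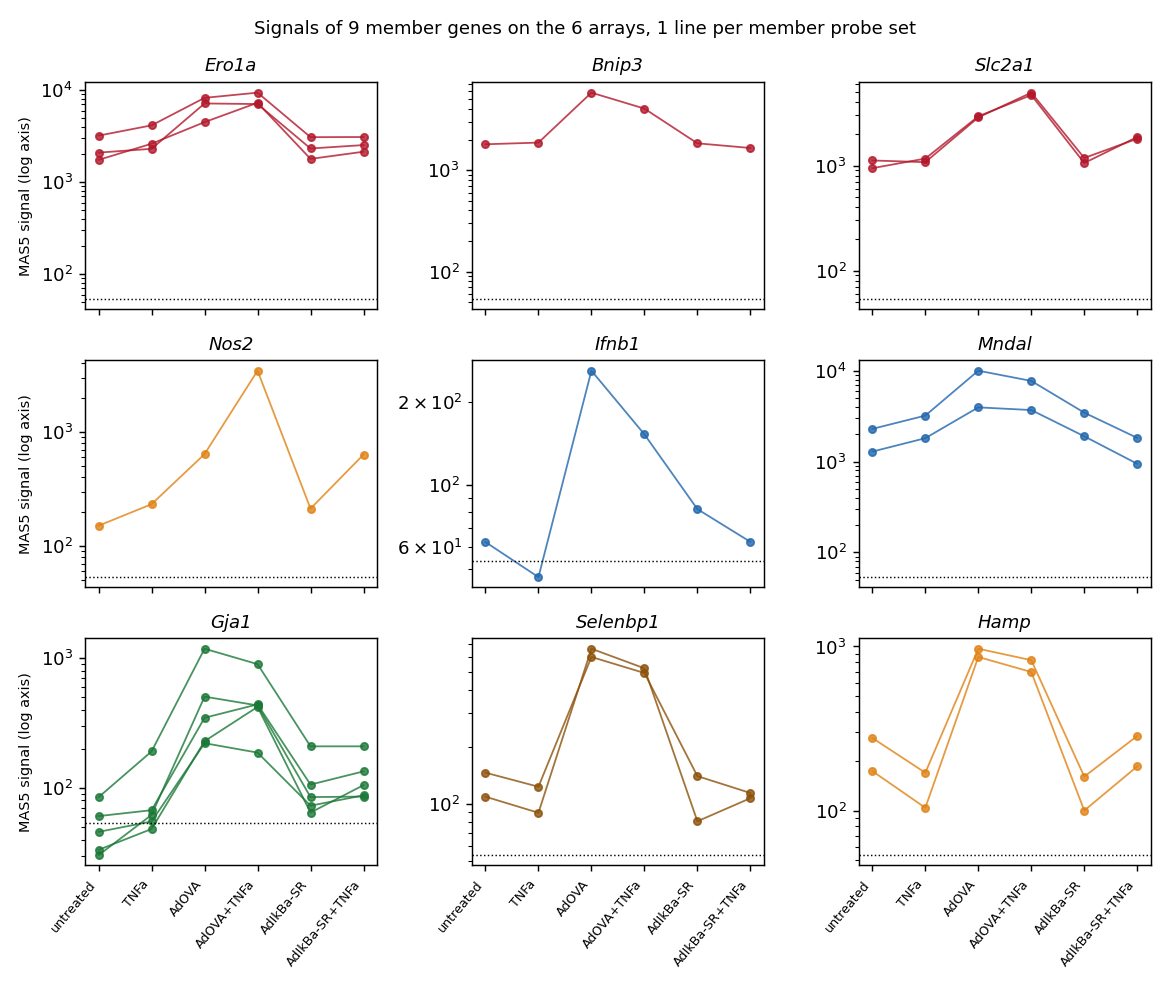
Deposited signals (log axis, 1 scale per panel) of 9 member genes on the 6 arrays, with 1 line per member probe set and the floor as a dotted line. On each line the AdOVA and AdOVA+TNFa points lie above the other 4, most narrowly for Nos2, where AdIkBa-SR+TNFa stands at 634 and AdOVA at 640. The rule asks for this order among arrays of the same TNFa treatment.

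The promoters of 4 genes of this group are shown because each holds the core ACGTG, or CACGT on the other strand, that HIF is known to bind. Capitals mark the core; where both strands match they overlap as CACGTG. The stretches lie upstream of the start site and come from RefSeq on build GRCm38.p6, printed along the strand of the gene.
Slc2a1 (chr4:119108645-119108744, plus strand): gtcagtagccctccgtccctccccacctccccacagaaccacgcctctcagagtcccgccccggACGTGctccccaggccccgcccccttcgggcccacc
Bnip3 (chr7:138909557-138909656, minus strand): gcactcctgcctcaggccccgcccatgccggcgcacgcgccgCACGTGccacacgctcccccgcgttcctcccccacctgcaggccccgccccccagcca
Ero1a (chr14:45318583-45318682, minus strand): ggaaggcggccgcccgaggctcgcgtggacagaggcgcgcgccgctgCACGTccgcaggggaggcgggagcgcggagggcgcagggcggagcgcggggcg
Ddit4 (chr10:59951891-59951990, minus strand): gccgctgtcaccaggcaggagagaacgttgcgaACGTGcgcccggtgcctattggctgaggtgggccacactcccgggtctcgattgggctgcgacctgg
Promoter windows of 300 bases (250 before to 50 after the start) were given for 63 of the 72 member genes, 75 windows in all. The core ACGTG was found on either strand in 7 of 19 windows (36.8%) of the low-oxygen genes, in 16 of 75 windows (21.3%) of all members and in 19.6% of the 32851 windows of all genes. The enzymes and chaperones had a higher share, with 3 of 5 windows (60.0%). It was 27.3% for nuclear and RNA genes, 25.0% for membrane genes and 6.67% for signalling genes. The interferon group and the genes without a shared role had 0.0%. This motif was chosen after the values were seen. A match describes the letters and shows no binding.

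The 10 interferon and antigen presentation genes had a median signal of 160, 179, 489, 683, 207 and 178 over their 14 probe sets. Interferon beta, encoded by Ifnb1, is the secreted signal that starts the antiviral response; its signals were 62.4, 46.6, 260, 153, 82.1 and 62.5. AdOVA alone was thus the highest array, 4.17-fold above untreated, and with TNFa the ratio was at least 2.86-fold. The 4 arrays without AdOVA lay between 46.6 and 82.1, close to the floor.

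Iigp1, an interferon-induced GTPase that attacks the vacuoles of parasites, read 50.2, 16.6, 279, 245, 50.3 and 41.7 on 1 of its 2 member probe sets and was under the floor on all 4 arrays without AdOVA. Its other member probe set, at 159, 183, 638, 797, 272 and 171, was above the floor throughout. Uba7, the enzyme that activates the ubiquitin-like ISG15, read 410, 405, 1020, 1682, 375 and 453, highest with AdOVA+TNFa.

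Mndal, of the DNA-sensing Ifi200 family, was the brightest of these genes, with 2289, 3207, 10009, 7723, 3454 and 1822. With AdIkBa-SR alone it stood above both arrays without virus, and with AdIkBa-SR+TNFa below both. Ddx60, a helicase that assists RNA sensing, showed the same order with 397, 501, 1278, 1207, 588 and 365. The ubiquitin ligase Trim21, also an antibody receptor in the cytosol, read 336, 397, 1078, 1036, 432 and 326.

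The remaining genes are the ubiquitin ligase Trim6, the peptide-loading protein Tapbpl and the MHC class I genes H2-D1 and H2-Q5. H2-D1 read 80.9, 80.9, 254, 198, 99.0 and 61.9 on its member probe set. H2-D1 and H2-Q5 have near-identical relatives, so which gene their probes read is uncertain. Of 8 other H2-D1 probe sets, the brightest stood at 5901, 5067, 6730, 8221, 6073 and 6930 and was in no ratio 2-fold apart.

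Promoter stretches of 5 members are shown because they hold the binding consensus of NF-kB (searched by that name) or the core of the interferon-stimulated response element, ISRE (GAAA, 2 bases of any kind and GAAA). Capitals mark the match, and in H2-D1 matches overlap on both strands. All come from RefSeq on build GRCm38.p6.
Ifnb1 (chr4:88522835-88522934, minus strand, NF-kB consensus): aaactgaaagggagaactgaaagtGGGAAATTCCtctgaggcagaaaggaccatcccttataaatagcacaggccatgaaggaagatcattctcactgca
H2-D1 (chr17:35262904-35263003, plus strand, NF-kB consensus): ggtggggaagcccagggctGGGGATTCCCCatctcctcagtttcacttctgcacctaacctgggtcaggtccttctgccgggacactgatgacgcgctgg
Ddx60 (chr8:61927997-61928086, plus strand, ISRE core): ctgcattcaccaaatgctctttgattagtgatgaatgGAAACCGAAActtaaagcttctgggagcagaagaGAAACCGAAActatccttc
Mndal (chr1:173880188-173880277, minus strand, ISRE core): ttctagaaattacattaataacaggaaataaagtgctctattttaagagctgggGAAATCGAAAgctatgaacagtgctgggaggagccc
Tmem140 (chr6:34863046-34863145, plus strand, ISRE core): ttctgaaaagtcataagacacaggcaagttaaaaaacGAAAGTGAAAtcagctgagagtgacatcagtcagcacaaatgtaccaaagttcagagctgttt
The ISRE core was found in 4 of the 8 windows of the interferon and antigen presentation genes, those of Mndal, Ddx60 and Trim21, in 6 of 75 member windows (8.0%) and in 3.44% of all windows. The NF-kB consensus was in 9 of 75 member windows (12.0%) against 8.46% of all: Ifnb1, H2-D1, Ak4, Ero1a, Mgarp, Clic4, Jarid2, Rcl1 and Trim43a. Another form (GGG, 2 bases of any kind and TTTCC) was in 0 of the 75 and in 1.63% of all windows. Motifs were searched on both strands. The others were TGANTCA of AP-1, in 12.0% of member windows against 7.81% of all, TTC and GAA with 3 bases between them, of STAT factors, in 6.67% against 8.3%, TGACGT of CREB in 4.0% against 7.51% and TATAAA in 16.0% against 13.6%.

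Genes of signalling and secreted mediators numbered 13, with 15 probe sets. Nos2, the inducible nitric oxide synthase of activated myeloid cells, had the widest ratio of AdOVA+TNFa over TNFa: 151, 233, 640, 3444, 213 and 634. The AdOVA+TNFa array stood far above the rest, 14.8-fold above TNFa, and AdIkBa-SR+TNFa lay close to AdOVA without TNFa.

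Hamp, the iron-regulating hormone hepcidin, read 174, 104, 863, 699, 100 and 186 on 1 probe set and 277, 170, 969, 825, 161 and 285 on the other. Mir155hg, the host transcript of the microRNA miR-155 of activated immune cells, read 111, 196, 585, 732, 137 and 132. Both stood apart on the AdOVA arrays from all 4 other arrays, which the rule asks for among arrays of the same TNFa treatment.

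Hdc, the enzyme that makes histamine, read 45.4, 70.4, 477, 474, 89.3 and 183. Histamine is known from mast cells and basophils. The summed signal of 8 mast cell markers was 1030 and 1009 on the AdOVA arrays and 1206 to 1649 on the others. Single markers differed: Cpa3 was lowest on the AdOVA arrays (275 and 286), while Mcpt2 was highest with AdOVA+TNFa (137) and Tpsb2 with AdOVA (64.6). The part of such cells in the Hdc signal was not tested. Peli1, a ubiquitin ligase of Toll-like receptor signalling, read 231, 240, 1360, 758, 350 and 333, highest with AdOVA alone.

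The rest of this group are the kinase Map2k6 of the p38 pathway, the phosphatase Dusp16, the adaptor Gab1, the hedgehog receptor Ptch1, the GTPase Rhoh, the ephrin receptor Epha1, the secreted glycoprotein Fstl1 and the lymphocyte receptor Slamf1. Their signals with AdOVA ran from 127 to 873. The lowest of these was a Slamf1 probe set and the highest Dusp16.

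Genes of the membrane, of junctions and of transport numbered 9, with 16 probe sets. Gja1, which encodes the gap junction protein connexin 43, held 5 of them. Its probe set with the largest smallest ratio read 30.3, 61.9, 505, 432, 84.9 and 85.7, and its brightest 84.8, 191, 1182, 899, 209 and 209.

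Further Gja1 probe sets read 33.3, 48.2, 229, 421, 64.5 and 105, or 60.6, 67.3, 347, 440, 106 and 134, or 45.8, 55.1, 221, 187, 72.9 and 87.6. The AdOVA arrays separated from the rest on each of them, which the rule asks for among arrays of the same TNFa treatment. The probe sets disagreed on whether AdOVA or AdOVA+TNFa was higher, and both AdIkBa-SR arrays stood above the untreated array on all 5.

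Clic4, an intracellular chloride channel protein, was bright throughout, with 1054, 1682, 4071, 4845, 1360 and 1564 on 1 probe set and 622, 1009, 1974, 3272, 693 and 1062 on another. The TNFa array was above untreated on all 3 of its member probe sets. The tight-junction claudin Cldn3, the anion transporter Slco3a1, the glutamate transporter Slc1a2, the adhesion protein Nlgn2, the clathrin adaptor subunit Ap1m2 and the membrane proteins Pdzk1ip1 and Tmem140 had AdOVA signals from 154 (Ap1m2) to 532 (Tmem140).

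Nuclear and RNA genes numbered 10, with 12 probe sets. Plagl1, a zinc finger transcription factor, came from 1.94, 1.91, 2.99 and 2.06 on the 4 arrays without AdOVA to 155 with AdOVA and 218 with AdOVA+TNFa, at least 2.9-fold and at least 4.07-fold. Junb, a subunit of AP-1, read 275, 320, 681, 1073, 170 and 490. Its AdIkBa-SR array was the lowest of the 6.

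The other nuclear genes are the silencing factor Resf1, the polycomb partner Jarid2, the linker histone H1f2, the homeobox gene Pitx3, the stress protein Nupr1, the ADP-ribosyl transferase Tiparp, the splicing factor Srsf2 and the ribosomal RNA processing gene Rcl1. H1f2 was the brightest, with 1885, 1387, 4436, 3513, 1939 and 1412. The 3 Resf1 probe sets had signals with AdOVA between 180 and 727.

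Enzymes and chaperones numbered 6, with 8 probe sets. Selenbp1, a selenium-binding enzyme of sulphur metabolism, read 109, 89.6, 660, 520, 80.8 and 107 on 1 probe set and 146, 123, 597, 491, 140 and 114 on the other. AdOVA stood 8.17-fold above AdIkBa-SR on the first, against a widest gap of 8.61-fold over all members. The acid phosphatase Acpp read 812, 1039, 2339, 3161, 738 and 1202. The peroxiredoxin Prdx4, the nucleotidase Nt5c3, the plasminogen activator Plat and the chaperone Dnajc1 had AdOVA signals of 119 to 633.

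The last 9 genes have no shared role. Pcp4, a calmodulin-binding peptide, read 23.1, 42.3, 228, 155, 15.9 and 31.3 and was under the floor on every array without AdOVA. U90926 had the highest single signal of all members, on the AdOVA array, with 3616, 2380, 12087, 6009, 3188 and 2873. Rsph9, Sprr2k, Dele1, C130026I21Rik, Rnf225, Rffl and Trim43a had AdOVA signals of 110 to 458.

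Near the threshold, Ap1m2 (smallest ratio 2.0-fold), Pitx3 (2.0-fold) and Epha1 (2.01-fold) were just inside. Just outside were 1700030K09Rik (1.99-fold), the collagen prolyl hydroxylase P4ha2 (at least 1.98-fold, under the floor with TNFa and with AdIkBa-SR+TNFa, so that the floor sets its place) and a further probe set of Fstl1 (1.98-fold).

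The rule did not use the TNFa response, which asks whether TNFa moved the members within each virus state. Most members were within 2-fold. Without virus 2 member probe sets were 2-fold higher with TNFa (Gja1 log2 1.18, and Jarid2 at least 1.06, as it was under the floor untreated) against 0.731% of all measured probe sets, and 0 were 2-fold lower against 1.05%. With AdOVA 4 were higher (Nos2 log2 2.43, Ndrg1 1.95 and 1.39, Srsf2 1.02) against 4.7%, and 1 was lower (U90926, -1.01) against 3.32%. In AdIkBa-SR cells 4 were higher (Nos2 log2 1.58, Junb 1.53, Slc1a2 1.08, Hdc 1.04) against 2.03%, and 1 was lower (the dimmer Mndal probe set, -1.01) against 0.832%. None of these counts is above 4 of 97, and 0 members were 2-fold apart in the same direction both without virus and with AdOVA.

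The median log2 difference of the members with TNFa was 0.09 without virus, 0.15 with AdOVA and 0.00 with AdIkBa-SR, against 0.00, 0.04 and 0.00 for all measured probe sets. With AdOVA, 55 members (56.7%) were higher and 42 lower with TNFa than without it, where 53.1% of all measured probe sets were higher. limma was fitted to all 6 arrays with a single TNFa response for the arrays without AdIkBa-SR, which leaves 1 residual degree of freedom. It called 4 of 14902 probe sets (0.0268%) for that response and 0 of the 97 members at an adjusted p under 0.05. At an unadjusted p under 0.05 it had 13 members, against 11.0% of all. The spread in this fit is the difference between the AdOVA ratios with and without TNFa, both of which the rule used, so the members' counts in limma are a description. For TNFa in AdIkBa-SR cells limma called 0 probe sets (754 at an unadjusted p under 0.05, 10 of them members, 5.06% of all), and for the difference from the shared response also 0 (731 and 5, 4.91%).

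**Figure D3:**
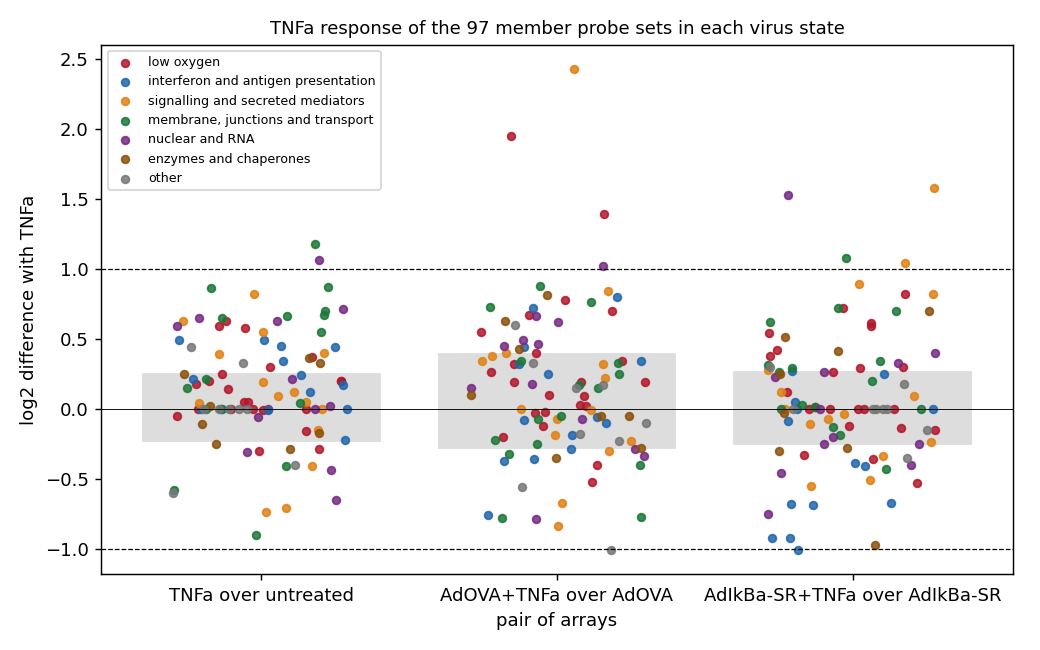
Points are the 97 member probe sets, coloured by role, at their log2 difference with TNFa in each virus state; grey bars are the interquartile range of all 14902 measured probe sets and dashed lines mark 2-fold. Nos2 is the highest point with AdOVA (2.43) and with AdIkBa-SR (1.58), and 9 of the 14 interferon and antigen presentation probe sets lie below 0 in the AdIkBa-SR column.

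The other comparison that the rule did not name sets the super-repressor arrays against the arrays without virus. In log2 it is, in each pair, the sum of 2 ratios of the rule, AdIkBa-SR over AdOVA and AdOVA over no virus. The comparison is thus a description and not separate from the values that chose the members. In it 93 of 97 members were within 2-fold in both pairs, and so were 93.4% of all measured probe sets. The members' count is set in part by the floor: 16 members without TNFa and 12 with TNFa are under it on both arrays of the pair and so have a difference of exactly 0, since they passed the filter through the AdOVA arrays. Without TNFa 1 member was 2-fold higher (Gja1, log2 1.30) against 0.584% of all and 0 were lower against 0.544%. With TNFa 2 were higher (Nos2, log2 1.44, and Hdc, 1.38) against 3.1%, and 1 was lower (Resf1, -1.17) against 2.62%. None was 2-fold apart in the same direction in both pairs. The contrast in limma is not the same as these pairs. Its level without virus is fitted with the TNFa response shared with AdOVA, so it draws on the AdOVA arrays too. For Nos2 it gave log2 0.95, where the arrays without TNFa differed by 0.5. limma called 2 of 14902 probe sets (0.0134%) as different between AdIkBa-SR and no virus and 0 members (3 members at an unadjusted p under 0.05, against 2.36% of all).

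Interferon and antigen presentation genes stood mostly above the level without virus in the pair without TNFa, and not in the pair with TNFa. Without TNFa, AdIkBa-SR was above untreated in 11 of 14 probe sets and below in 1 (median log2 0.33), where 43.1% of all probe sets were above. With TNFa, AdIkBa-SR+TNFa was above TNFa in 4 of 14 and below in 8 (median -0.19), where 44.8% of all were above and 7325 of 14902 below. Within AdIkBa-SR cells TNFa gave a median of -0.40, with 9 of 14 lower, where 7109 of all 14902 were lower, while without virus it gave 0.19. The brighter Mndal probe set shows this order, with 3454 for AdIkBa-SR and 1822 for AdIkBa-SR+TNFa. A list of interferon-stimulated genes without the members did not show this order: its medians against no virus were 0.31 without and 0.25 with TNFa, over 42 genes. The AdIkBa-SR array is the one with the other wash, and the part of the wash was not tested. The low-oxygen genes had medians of 0.00 in both pairs. Membrane, junction and transport probe sets also stood mostly above the level without virus, but 5 of the 16 belong to Gja1. Without TNFa 12 of 16 were above (median 0.26), and with TNFa 10 of 16 (median 0.22). Read by gene, 5 of 9 were above in each pair (median 0.13).

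**Figure D4:**
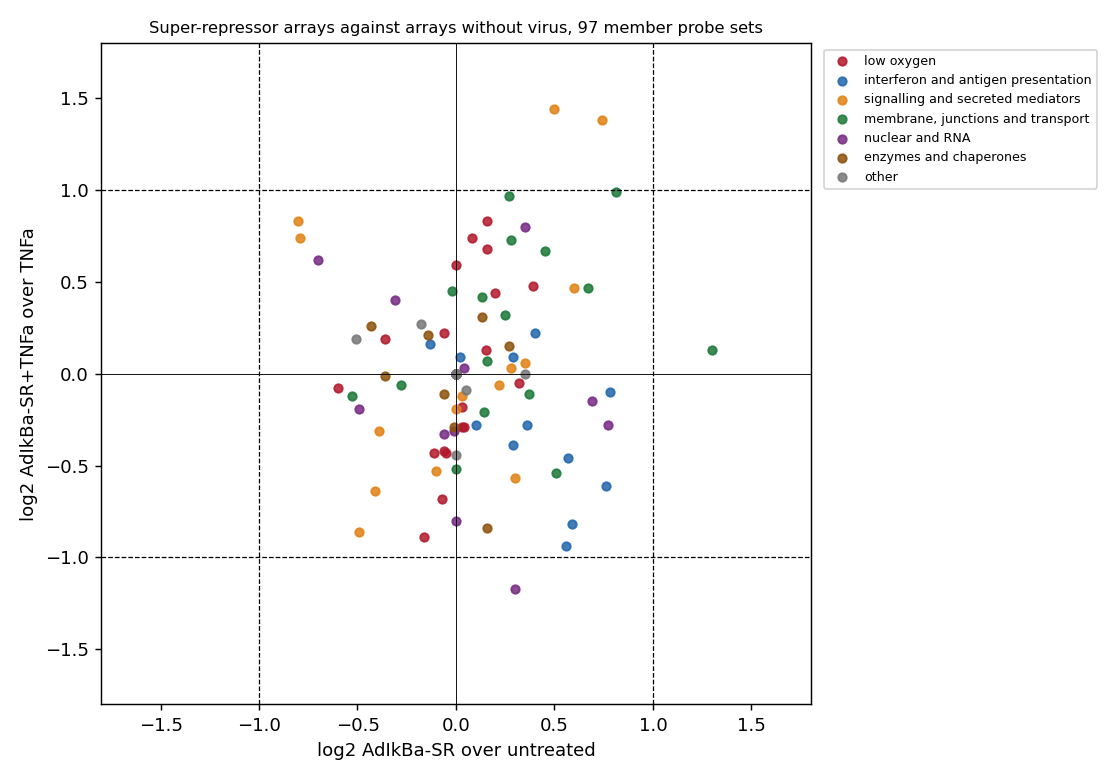
Each point is a member probe set, coloured by role, with the log2 difference of AdIkBa-SR over untreated on the horizontal axis and of AdIkBa-SR+TNFa over TNFa on the vertical axis; dashed lines mark 2-fold. Of the 97 points 93 lie inside the dashed square; interferon and antigen presentation genes lie mostly to the right, and 8 of 14 lie below 0.

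Other probe sets of the same genes give a partial check of the members by other probes, on the same arrays. There are 52 of them for 30 genes, and 38 for 24 genes were above the floor on at least 2 arrays. Of these, 31 were in the direction of the rule in all 4 ratios, against 27.2% of 13526 other measured probe sets with 1 symbol. Among the 31 are probe sets of Gja1, H2-D1 and Epha1 that were above the floor only with AdOVA and AdOVA+TNFa. They passed the filter through those arrays alone, so the floor fixed their direction in all 4 ratios. Sizes were smaller over the 38: 9 were past 2-fold in 3 of the 4 ratios and 17 in none. Median log2 values were 0.71 and 0.86 for AdOVA and -0.70 and -0.82 for AdIkBa-SR. Hdc (122, 164, 605, 418, 84.3 and 236) and Nupr1 (251, 188, 1035, 656, 289 and 340) repeated their pattern. Against it, with the direction of the rule in 2 or fewer ratios, stood 3 probe sets of Srsf2, 2 of Prdx4 and 1 of H2-D1, with Srsf2 at 497, 581, 395, 287, 501 and 350 on the brightest. Read from its brightest probe set, whether a member or not, a gene met all 4 conditions in 59 of the 72 cases.

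Other genes of the known pathways were read from lists without the left-out families, each gene from its brightest probe set. Of 44 measured interferon-stimulated genes, 12 were 2-fold higher with AdOVA in both pairs (27.3%), 0 were lower, 3 were 2-fold lower with AdIkBa-SR in both pairs (6.82%), and only Trim21 and Peli1 met all 4 conditions. Medians of that list were 0.76 and 0.89 for AdOVA and -0.52 and -0.63 for AdIkBa-SR. Of 64 measured NF-kB targets, 5 were higher with AdOVA, 1 lower, 7 lower and 1 higher with AdIkBa-SR, and 2 met all 4 conditions (Nos2 and Junb); the medians were 0.48, 0.48, -0.45 and -0.39. Over all 8713 measured genes outside the left-out families, 1.53% were higher with AdOVA, 1.27% lower, 1.23% lower with AdIkBa-SR and 1.11% higher. These lists and shares count the members. Without the members the medians were 0.74, 0.88, -0.51 and -0.6 for the interferon list. They were 0.44, 0.42, -0.44 and -0.38 for the NF-kB list, against 0.02, 0.07, -0.05 and -0.10 over all genes.

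A list of low-oxygen target genes was drawn up after the values were seen. Without its 16 members, 38 genes were measured, of which 5 were 2-fold higher with AdOVA in both pairs (Fam162a, Hilpda, Hmox1, Pfkfb3 and Slc2a3), 1 was lower (Tfrc) and 0 were 2-fold lower with AdIkBa-SR in both pairs. Their medians were 0.52 and 0.77 for AdOVA and -0.40 and -0.41 for AdIkBa-SR. Over all measured genes without the members, 0.845% were 2-fold higher with AdOVA in both pairs, 1.28% lower and 0.532% lower with AdIkBa-SR. Glycolysis genes of this list were mixed. Pgk1 (11158, 13463, 16668, 11928, 12207 and 10256) and Ldha (7594, 7260, 11396, 9754, 7337 and 8182) were in no ratio 2-fold apart. AdOVA+TNFa was over 2-fold above TNFa for Pfkfb3 (log2 1.21), Hk1 (1.39), Aldoa (1.15) and Pfkl (1.07), and of these Pfkfb3 was also over 2-fold higher without TNFa (1.38). Hk2 was over 2-fold lower with AdIkBa-SR+TNFa than with AdOVA+TNFa (-1.20), as was Pfkfb3 (-1.08).

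By correlation over the 6 arrays with the median member profile, the most like genes outside the members and the left-out families were Cntfr (r = 0.996), Mapk8 (0.996), Mbd1 (0.995), Tdo2 (0.994) and Cd274 (0.993). Only Cd274, the inhibitory ligand PD-L1, was bright, at 3758, 4842, 8949, 9516, 4005 and 3808. With AdOVA+TNFa its ratio to TNFa was just under 2-fold (log2 0.97), which kept it outside the rule. Mapk8 and Mbd1 stood at 259 and 563 with AdOVA, against 181 and 337 untreated.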

How the data were processed

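RNA of 6 groups of dendritic cells was measured, 1 array each. The values are intensity signals on a linear scale, 1 per probe set, deposited by the authors. The submitters' processing notes name MAS5 (version not given in the sources used here), and the trimmed mean of each array is 200. Rounds and wash settings come from the array headers.

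Of 22690 probe sets, 64 are controls; of the others the platform annotation gives 1 symbol to 20380, several to 691 and none to 1555, and only the first were named. All 72 member genes matched RefSeq. Signals under the floor were set to it before ratios and log2, so ratios of dim genes are bounds, given as "at least". Probe sets above the floor on at least 2 arrays (14902) counted as measured. Signals were not rescaled. limma (3.58.1, R 4.3.3, trend on signal, Benjamini-Hochberg over all measured probe sets) was used on contrasts the rule did not name, and was tested on simulated data. The contrast of AdIkBa-SR with no virus is not separate from the ratios of the rule. Tables were made with pandas 2.3.3. The spread limma used is the difference between TNFa responses without virus and with AdOVA, which is also the difference between the AdOVA ratios with and without TNFa that the rule used, so the members' p-values are not independent of the rule. With 1 array per group the number of arrays limits the precision, and p-values measure only the spread between these arrays.

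Named array by array were the 24 members with the largest smallest ratio of the 4; values of others, beyond the rule, were chosen after they were seen. The members, lists and roles were chosen with earlier results of these data known. Alternatives were other scalings, floors, thresholds, probe set choices and fits.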

Additional observations from a re-analysis of the deposited data

Results flagged for a closer look

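The 5' control probe set for 18S ribosomal RNA, which enters no comparison, read 2601 on the AdOVA+TNFa array, above the 120 of the untreated array and the 537 of the next highest array. The AdOVA+TNFa array enters both ratios with TNFa that chose the members; its 3' 18S control read 1061, against 229 to 414 elsewhere, and its Gapdh 3' to 5' ratio of 0.832 lay within the 0.742 to 0.88 of all arrays. The rule on the arrays without TNFa alone, which leaves that array out, took 292 probe sets.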

How the results depend on the processing

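The smallest ratio of the 97 members was 1.71-fold under equal medians, 1.86-fold under quantile normalization, 2.0-fold with a floor of 32 and 1.1-fold with a floor of 100. Scalings and floors of this size could not turn ratios of at least 2-fold, so their direction was not at stake. The number that met the rule fell to 54 with every array scaled to the same median (all 54 among the 97) and to 13 at 3-fold. Alternatives chosen after seeing the data gave 292 on the arrays without TNFa alone and 280 on those with TNFa alone; the 97 are 33.2% and 34.6% of these. With equal medians the median over all measured probe sets went, on the log2 scale, from 0.07 to -0.09 for AdOVA+TNFa over TNFa and from -0.12 to 0.05 for AdIkBa-SR+TNFa over AdOVA+TNFa.

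In this and the next paragraph, the scalings and floors chose the members anew, so the counts have other totals. Those totals were 54 under equal medians, 89 under quantile normalization, 124 with a floor of 32 and 66 with a floor of 100. The 1.5-fold and 3-fold counts keep the 97, and the brightest probe sets are part of them. Members 2-fold higher with TNFa (2 without virus, 4 with AdOVA, 4 with AdIkBa-SR) numbered 1, 2 and 2 under equal medians. They numbered 5, 7 and 7 with a floor of 32 and 0, 1 and 2 with a floor of 100. At 1.5-fold the numbers were 16, 18 and 14, and at 3-fold 0, 2 and 0. The brightest probe set of each gene gave 1 without virus and 1 with AdOVA. Members lower with TNFa (0, 1 and 1) numbered 5, 7 and 8 at 1.5-fold. With AdOVA the 1 became 0 under equal medians, quantile normalization and 3-fold and 2 with a floor of 32; with AdIkBa-SR it became 2 with that floor and 0 with the brightest probe set and at 3-fold.

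Members 2-fold higher with AdIkBa-SR than untreated (1) numbered 2 with a floor of 32, 10 at 1.5-fold and 0 at 3-fold, and those lower (0) 1 with that floor and 4 at 1.5-fold. With TNFa, those higher (2) numbered 4 under equal medians, 1 with a floor of 100, 1 with the brightest probe set, 14 at 1.5-fold and 0 at 3-fold, and those lower (1) 2 under quantile normalization, 3 with a floor of 32, 10 at 1.5-fold and 0 at 3-fold.

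The 4 limma calls for the shared TNFa response became 0 in the additive fit, under equal medians, quantile normalization, no filter and with the round as a block (1425, 1443, 1380, 1051 and 420 at an unadjusted p under 0.05). The 2 calls for AdIkBa-SR against no virus became 1 in the additive fit and 0 under the other 4. Without the filter limma called 84 higher and 55 lower for TNFa in AdIkBa-SR cells, where it had 0. Members had 0 calls in every fit. Of 98 alternatives over 15 counts, 43 stayed within 1.5 times and 55 did not, compared as counts and not as shares of the members. The cause was not tested. No paired analysis was possible because the labels give no replicate numbers and each group has 1 array. Probe sets near the floor limit the precision.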

Other observations

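The genes left out by symbol include some that are no interferon, cytokine or NF-kB genes. Signals are in the order given above. The heat-shock gene Hspa1b, a chaperone of stressed cells, had signals of 56.6, 48.6, 614, 669, 61.5 and 109 on 1 of its 3 probe sets. Mxd1, a partner of the Max transcription factor, read 86.7, 120, 214, 523, 107 and 185.

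Of the wider lists, some genes were 2-fold higher with AdOVA in both pairs and not 2-fold lower with AdIkBa-SR in both. Mmp13 and Hilpda below are such genes, while Aldoa and Tfrc are not. Mmp13, a collagenase, read 777, 575, 2688, 2886, 4301 and 3828, highest with AdIkBa-SR. Hilpda, a lipid droplet protein known from low oxygen, read 836, 658, 2607, 2675, 1478 and 1954. Aldoa, a glycolytic enzyme, read 5409, 4917, 5510, 10910, 4984 and 10498, so it was high with TNFa in both virus states and not without virus. Tfrc, the transferrin receptor, was lower with AdOVA, at 657, 923, 324, 307, 607 and 507.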
